A study of Homo sapiens with 6 samples.

Results

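The 39 genes described here encode the hypoxia-inducible factors (HIFs), the proteins that mark these factors for destruction, a set of genes that HIFs are known to activate, and the transporters and enzymes of glycolysis. They were chosen by gene symbol, and all 39 were found among the 35474 genes listed in the count table. Their RNA was compared between 3 cultures of A549, a human lung adenocarcinoma cell line, transfected with siRNA against BAP18 (siBAP18) and 3 A549 cultures transfected with a control siRNA (siCtrl). BAP18 is a subunit of chromatin complexes and is encoded by C17orf49. All 6 cultures were collected 48 h after transfection, and their poly(A) RNA was sequenced. The labels name no other agent and no low-oxygen treatment for either group, and which of the study's BAP18 siRNAs was used for sequencing is not given in the sources used here.

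When oxygen is plentiful, prolyl hydroxylases modify the alpha subunits of HIF, the VHL protein binds the modified subunit, and the subunit is degraded. When oxygen is scarce, the alpha subunit persists, pairs with ARNT and binds a short DNA word near its target genes, which then raise glucose uptake, glycolysis, acid export, new vessel growth and collagen modification. Control of HIF alpha is mainly at the level of the protein, which RNA counts do not show. Glycolysis splits glucose into pyruvate, and lactate dehydrogenase converts pyruvate into lactate, a route that lung cancer cells in culture use heavily.

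Expression is given in CPM, the deposited counts relative to the library total after TMM scaling. Levels of different genes were compared in RPKM, which also divides by the listed gene length, taken over all listed exons of a gene. Orders and shares between genes therefore rest on that length. Every log2 fold change is siBAP18 relative to siCtrl. Every adjusted p comes from the quasi-likelihood test of edgeR, adjusted by Benjamini-Hochberg over the 20776 genes that passed a filter on low counts. All 39 genes passed that filter. C17orf49 itself was at 13.97, 16.1 and 15.1 CPM in siCtrl and at 2.21, 2.35 and 2.66 CPM in siBAP18 (log2 fold change −2.65, standard error 0.111, adjusted p = 7.31e-16). Totals ran from 42094524 to 56548620 counts per library. Mitochondrial genes took 6.86% to 7.43% of the counts in siCtrl and 5.27% to 6.14% in siBAP18. The summed level of 10 epithelial and A549 marker genes ran from 37381 to 39670 CPM in siCtrl and from 27459 to 31831 CPM in siBAP18. At an adjusted p under 0.05, 7 of the 10 were lower, KRT7 was higher (2384 to 3213 CPM) and 2 did not pass. KRT8 (13436 to 10433 CPM) and ALDH1A1 (9283 to 5163 CPM) fell by the most CPM. The CDKN2A gene, which is deleted in A549, had 0 to 7 counts. MTAP, its neighbor, was also taken as deleted in A549 but had 177 to 336 counts, which goes against that, and the cause was not tested. Of 14 fibroblast, leukocyte and endothelial markers, PTPRC, CD3E and DCN are not listed, and CD68 and COL1A1 held nearly all counts of the rest. CD68, a lysosomal protein, was at 66.2 ± 3.47 CPM in siCtrl and 136.4 ± 21.8 CPM in siBAP18 (SD, n = 3). The part of these differences in the results that follow was not tested. In bulk RNA, fewer cells with a transcript and less of it in each cell cannot be told apart.

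At an adjusted p under 0.05, 13 of the 39 genes rose and 15 fell in siBAP18 cells, and 11 did not pass. Of all genes tested, 49.6% passed this threshold, 24.5% as higher and 25.1% as lower, beside 71.8% of the 39. When an absolute log2 fold change over 1 was also required, 1 gene was higher (ADM) and 3 were lower (HIF1A, CA12 and ALDOC), beside 8.46% of all genes tested, 4.72% higher and 3.74% lower. In 12 of the 39 genes every siBAP18 library lay above every siCtrl library and in 18 it lay below, beside 56.6% of all genes tested, 27.6% above and 29% below. The median log2 fold change was −0.092 for the 39 genes and 0.0010 for all genes. The hypoxia and glycolysis genes thus moved in both directions, and their median lay near that of the table as a whole.

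**Figure D1:**
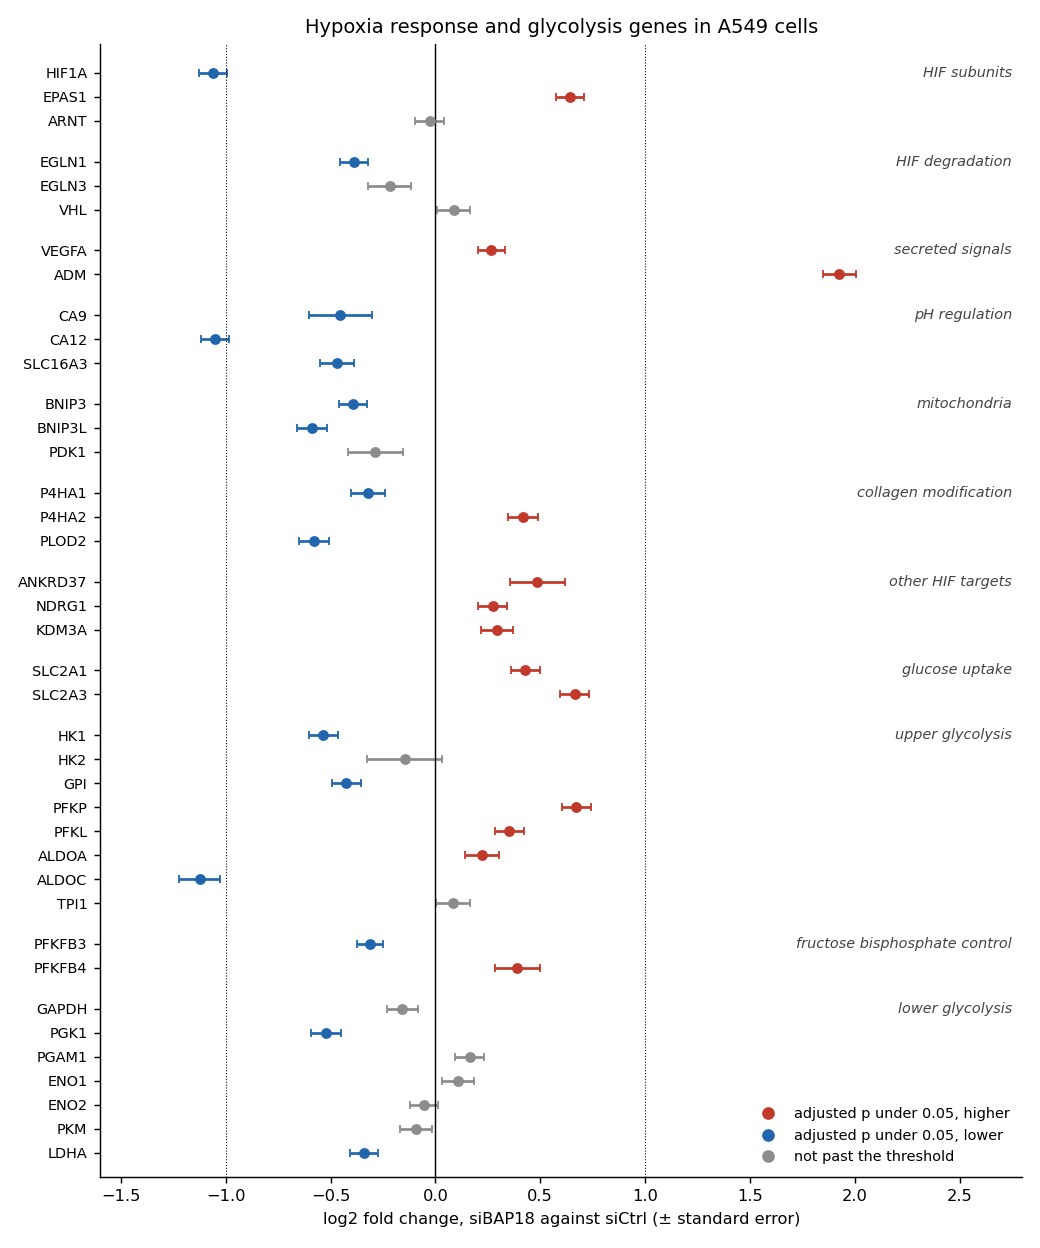
Log2 fold change of each of the 39 genes (siBAP18 against siCtrl, points with standard error, 3 libraries per group), ordered by role, with dotted lines at −1 and 1. Points are red for genes higher and blue for genes lower at an adjusted p under 0.05, and gray for the others. ADM stands apart at 1.93, and HIF1A, CA12 and ALDOC lie beyond −1.

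HIF1A and EPAS1, which encode the 2 main alpha subunits HIF-1α and HIF-2α, moved in opposite directions. HIF1A (chr14:61695513-61748259, GRCh38) was at 146.1, 137.2 and 140.5 CPM in siCtrl and at 68.5, 68.5 and 66.1 CPM in siBAP18. The siBAP18 libraries all lay well below the siCtrl libraries, and the fall was 2.09-fold (log2 fold change −1.06, standard error 0.0653, adjusted p = 1.19e-12). EPAS1 (chr2:46293667-46386703) was at 140.9, 140.5 and 137.9 CPM in siCtrl and at 224.3, 222.0 and 207.8 CPM in siBAP18. It rose 1.56-fold (log2 fold change 0.64, standard error 0.0649, adjusted p = 8.86e-09), and the groups did not overlap. In RPKM, HIF1A supplied 59.5%, 58.1% and 59.1% of the summed HIF1A and EPAS1 signal in siCtrl and 30.2%, 30.4% and 31.1% in siBAP18. The share of EPAS1 thus went from 41.1% ± 0.744 to 69.4% ± 0.456 (SD, n = 3). That HIF1A held the larger share in siCtrl rests on the listed lengths, 5151 bases for HIF1A and 7302 for EPAS1. In mean CPM the 2 were close in siCtrl, at 141.3 and 139.8. Of the exon bases of HIF1A, 2.87% lie on those of RP11-618G20.1 on the same strand, whose counts came to 24.7% of those of HIF1A. The pair of HIF1A and EPAS1 was set side by side after its values had been seen.

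ARNT, the partner of both alpha subunits (chr1:150809705-150876768), was at 38.98, 37.8 and 38.3 CPM in siCtrl and at 36.3, 38.5 and 38.1 CPM in siBAP18. The groups overlapped (log2 fold change −0.028, standard error 0.0678, adjusted p = 0.76).

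Of the genes that act in HIF degradation, EGLN1 fell and the other two did not pass the test. EGLN1 encodes PHD2, the main oxygen-sensing prolyl hydroxylase (chr1:231363751-231425044), and was at 79.7, 83.6 and 80.5 CPM in siCtrl and at 62.6, 66.0 and 57.6 CPM in siBAP18. Every siBAP18 library was lower than every siCtrl library (log2 fold change −0.39, standard error 0.0687, adjusted p = 3.94e-05). EGLN3, which encodes PHD3 and is itself a HIF target (chr14:33924231-34462774), was at 8.12, 8.36 and 8.04 CPM in siCtrl and at 7.83, 6.47 and 6.76 CPM in siBAP18. The groups did not overlap, but the difference did not pass (log2 fold change −0.22, adjusted p = 0.0816). It passed without siBAP18 replicate 1 (−0.31, adjusted p = 0.0357). VHL (chr3:10141008-10152220) was at 36.6, 41.4 and 34.0 CPM in siCtrl and at 38.1, 43.5 and 37.2 CPM in siBAP18, which overlap (log2 fold change 0.087, adjusted p = 0.391). Outside the 39 genes, and named after their values had been seen, EGLN2 (PHD1), the third of these hydroxylases, rose (log2 fold change 0.46, adjusted p = 6.10e-06). Of the proteins that work with VHL, ELOB (0.45, adjusted p = 1.39e-05) and ELOC (0.19, adjusted p = 0.0242) rose. CUL2 fell (−0.59, adjusted p = 2.08e-06), and RBX1 did not pass (0.20, adjusted p = 0.101).

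**Figure D2:**
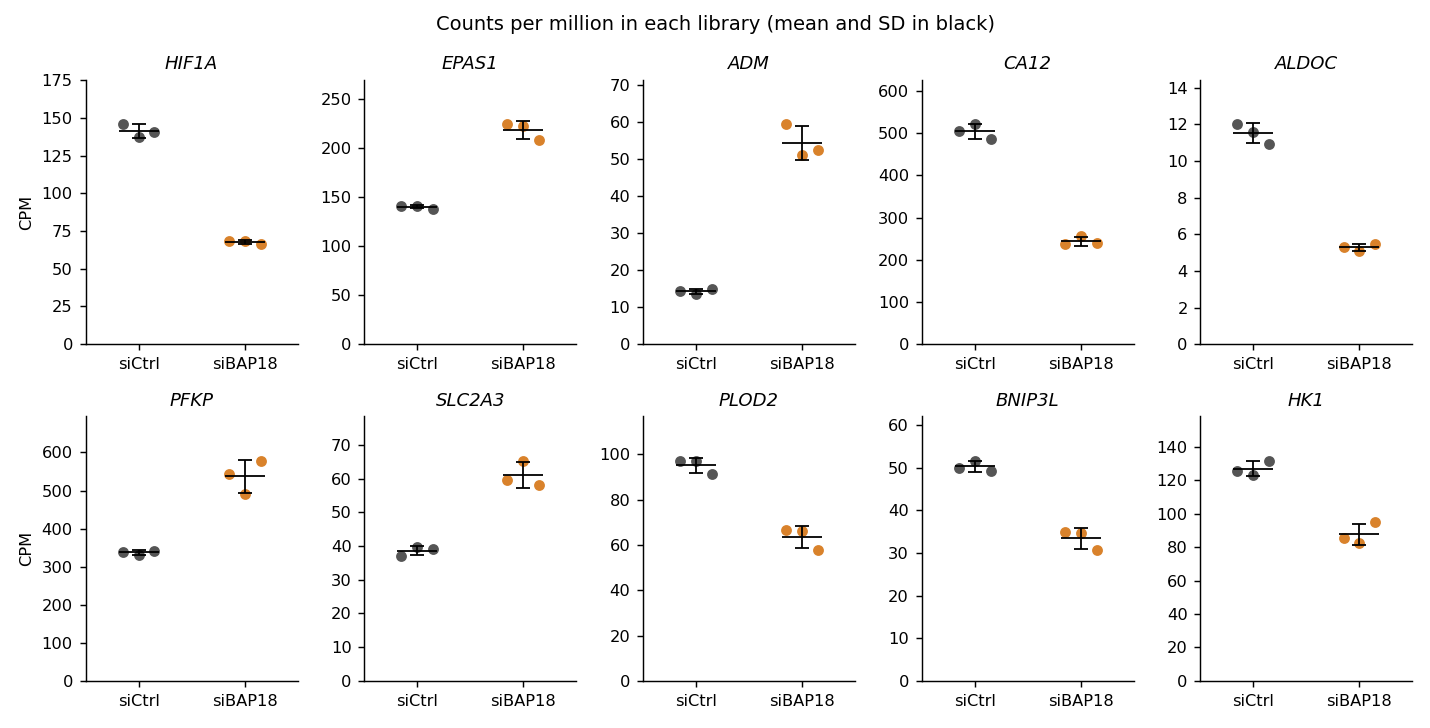
CPM of 10 genes in each library (points), with the mean and SD of the 3 libraries per group in black and axes from 0. In all 10 genes, which have the smallest adjusted p of the 39, the siCtrl and siBAP18 libraries are separate; EPAS1, ADM, PFKP and SLC2A3 are higher and the other 6 lower in siBAP18.

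HIFs bind the words ACGTG and GCGTG, which read CACGT and CACGC on the other strand. Both strands of RefSeq promoter windows (GRCh38.p14), from 250 bases before to 50 bases after a gene's start, were searched for them, and 34 of the 39 genes have at least 1 window. VHL, VEGFA, BNIP3L, NDRG1 and SLC2A3 have none in the table used. The stretches below are those of the members with the largest changes and of CA9, a gene long used as a marker of HIF activity. They are printed 5′ to 3′ on the gene's strand, with the words in capitals. The ALDOC window holds 3 such stretches, in the first of which CACGTG is the same word on both strands, overlapping. The CA12 window holds a second CACGC, 39 bases after the start, which is not shown. Starts are those of the RefSeq windows, which for ADM, CA9, CA12 and ALDOC lie inside the gene as listed in the count table.
CA9, chr9:35673898-35673926 (+), 18 bases before the start: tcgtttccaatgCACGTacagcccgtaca
ADM, chr11:10304960-10304988 (+), 101 bases before the start: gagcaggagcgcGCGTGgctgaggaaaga
HIF1A, chr14:61695297-61695325 (+), 204 bases before the start: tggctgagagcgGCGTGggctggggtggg
CA12, chr15:63382064-63382092 (-), 234 bases before the start: gcggatctcaccCACGCctgccagcagct
ALDOC, chr17:28577118-28577145 (-), 240 bases before the start: aagtgcccggCACGTGgtaaagggattg
ALDOC, chr17:28576987-28577015 (-), 108 bases before the start: ccgcctctgaggGCGTGgtcttgccccgg
ALDOC, chr17:28576915-28576944 (-), 45 bases before the start: aggcCACGCccccggaggagtCACGTagct

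ACGTG was found in 19 of the 34 genes (55.9%), beside 24.9% of the 27305 genes in the promoter table, and GCGTG in 21 of 34 (61.8%), beside 40.6%. A gene was counted if any of its windows held the word. Per window, ACGTG was in 39.3% of the 56 windows of these genes, beside 21.4% of all 35116 windows. GCGTG was in 46.4%, beside 36.5%. Many of the 39 genes are known HIF targets, which are partly recognized by these words, so the excess is not an independent result. The genes compared with were all those of the promoter table, whether or not they were tested here. The 39 genes also have more windows per gene (56 for 34, beside 35116 for 27305). What the excess rests on was not tested. ACGTG was found in 11 of the 14 genes that fell, in 3 of the 10 that rose and in 5 of the 10 that did not pass. GCGTG was found in 10, 7 and 4 of these genes. ADM, the gene with the largest rise, holds GCGTG and no ACGTG in its window, and ALDOC, with the largest fall, holds both. A word in a window is a description of letters and not a binding site.

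The 2 secreted signals both rose. ADM encodes adrenomedullin, a peptide that widens vessels and promotes their growth (chr11:10304680-10307397), and was at 14.4, 13.5 and 15.0 CPM in siCtrl and at 59.5, 51.0 and 52.4 CPM in siBAP18. The lowest siBAP18 library was more than 3 times the highest siCtrl library. It rose 3.80-fold (log2 fold change 1.93, standard error 0.0786, adjusted p = 4.37e-16), the largest change among the 39 genes. VEGFA, the main vessel growth factor, rose from 57.5 ± 0.956 to 69.1 ± 2.44 CPM (SD, n = 3), a log2 fold change of 0.27 (adjusted p = 0.0015).

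The 3 genes of pH regulation all fell. CA12 encodes a carbonic anhydrase at the cell surface (chr15:63321378-63382161) and was at 504.7, 522.0 and 486.3 CPM in siCtrl and at 236.5, 255.7 and 238.6 CPM in siBAP18. The groups were far apart, and the fall was 2.07-fold (log2 fold change −1.05, standard error 0.0667, adjusted p = 2.16e-12). SLC16A3, the lactate exporter MCT4, fell from 47.2 ± 1.80 to 34.2 ± 4.68 CPM (SD, n = 3; log2 fold change −0.47, adjusted p = 3.04e-05). CA9, the other carbonic anhydrase of the set, was at low levels, 3.80 ± 0.248 CPM in siCtrl and 2.795 ± 0.503 CPM in siBAP18 (SD, n = 3; log2 fold change −0.45, standard error 0.150, adjusted p = 0.014). It no longer passed without siCtrl replicate 1 (adjusted p = 0.0632), without siBAP18 replicate 2 (−0.31, adjusted p = 0.095) or with the DESeq2 Wald test (adjusted p = 0.0584). Of the exon bases of CA9, 38.5% lie on those of ARHGEF39 on the opposite strand. Whether strand was used in counting is not given in the sources used here.

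CA12 and ARNT also hold, in their 3′ UTRs in GENCODE 29, the word ACTCAAC, which pairs with bases 2 to 8 of the guide strand of siBAP18#3, one of the siRNAs listed in the study. The word of this siRNA was searched because earlier results of these data pointed to it, and those of the study's other BAP18 siRNAs were not searched. The sites are shown with 10 bases on either side, with the word in capitals.
CA12, chr15:63325841-63325847 (-): tgcttgggaaACTCAACttctttcctc
ARNT, chr1:150810997-150811003 (-): ctgcatggaaACTCAACttcttggatt
BNIP3L holds the word as well, so that 3 of the 39 genes (7.69%) have it, beside 6.79% of the 13740 tested genes with an annotated 3′ UTR. CA12 and BNIP3L fell and ARNT did not pass the test. HIF1A, ALDOC, EGLN1, HK1, PGK1 and the other genes that fell have no such word in the 3′ UTR searched.

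Of the 3 genes that act on mitochondria, 2 fell and the third did not pass. BNIP3 and BNIP3L are receptors for the removal of mitochondria by autophagy. BNIP3L (chr8:26382898-26505636) was at 49.9, 51.7 and 49.2 CPM in siCtrl and at 34.9, 34.6 and 30.6 CPM in siBAP18. The groups did not overlap (log2 fold change −0.59, standard error 0.0712, adjusted p = 1.67e-07). BNIP3 fell from 61.5 ± 1.27 to 46.8 ± 0.860 CPM (SD, n = 3; log2 fold change −0.39, adjusted p = 1.91e-05). PDK1, which restrains the entry of pyruvate into mitochondria, was at 4.04 ± 0.112 and 3.30 ± 0.209 CPM (SD, n = 3). Its groups did not overlap, but the difference did not pass (log2 fold change −0.29, adjusted p = 0.0707).

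The genes of collagen modification divided. PLOD2, a lysyl hydroxylase (chr3:146069440-146163653), was at 96.9, 97.3 and 91.3 CPM in siCtrl and at 66.5, 66.4 and 58.0 CPM in siBAP18. All siBAP18 libraries were lower (log2 fold change −0.58, standard error 0.0702, adjusted p = 1.65e-07). The alpha subunits of collagen prolyl hydroxylase went opposite ways, since P4HA1 fell (log2 fold change −0.32, adjusted p = 0.00202) and P4HA2 rose (log2 fold change 0.42, adjusted p = 2.16e-05). P4HA2 made up 32.4% ± 2.31 of their summed RPKM in siCtrl and 44.6% ± 4.39 in siBAP18 (SD, n = 3), without overlap. This pair too was set side by side after its values had been seen. Of the remaining HIF targets, 3 of 3 rose, beside 24.5% of all genes tested called as higher. ANKRD37, an ankyrin repeat protein, went from 3.63 ± 0.219 to 5.05 ± 0.763 CPM (log2 fold change 0.49, adjusted p = 0.00354), and 35.2% of its exon bases lie on those of UFSP2 on the opposite strand. NDRG1, a stress-responsive growth regulator, went from 98.3 ± 3.35 to 118.7 ± 6.64 CPM (log2 fold change 0.27, adjusted p = 0.00144). KDM3A, a histone H3 lysine demethylase, went from 52.7 ± 2.36 to 64.5 ± 6.77 CPM (log2 fold change 0.29, adjusted p = 0.00214), and its adjusted p was 0.0668 with limma on log2(RPKM + 1). Of the 14 HIF targets outside glycolysis and glucose uptake, including SLC16A3 and PDK1, 6 rose, 7 fell and 1 did not pass. EGLN3, which did not pass, was not counted among them. That made 92.9% called, beside 49.6% of all genes tested (24.5% higher and 25.1% lower). The genes were chosen with earlier results of these data known, so this share was not tested.

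Both glucose transporters rose. SLC2A1 (GLUT1) went from 148.0 ± 2.67 to 199.4 ± 15.3 CPM (SD, n = 3; log2 fold change 0.43, adjusted p = 1.01e-05). SLC2A3 (GLUT3, chr12:7919230-7936275) was at 37.0, 39.6 and 38.998 CPM in siCtrl and at 59.7, 65.4 and 58.2 CPM in siBAP18. Its groups did not overlap (log2 fold change 0.66, standard error 0.0700, adjusted p = 1.73e-08). The table also lists 3 pseudogenes of SLC2A3. Their counts came to 20.4% to 24.8% of those of SLC2A3 itself in siCtrl and to 7.04% to 8.75% in siBAP18. With those rows added to SLC2A3, the log2 fold change was 0.48. For the 10 other genes with pseudogene rows, these came to at most 3.08% of the gene's own counts. SLC2A1 remained the main transporter in RPKM, at 82.8% ± 0.638 of the pair in siCtrl and 80.3% ± 2.01 in siBAP18 (SD, n = 3), which overlap.

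The 15 glycolytic enzymes, from hexokinase to lactate dehydrogenase, did not move as a block. Of these, 3 rose (PFKP, PFKL and ALDOA), 5 fell (HK1, GPI, ALDOC, PGK1 and LDHA) and 7 did not pass. That made 53.3% called, beside 49.6% of all genes tested (24.5% higher and 25.1% lower), so the count does not set these enzymes apart. Their summed level was 3107 ± 85.5 RPKM in siCtrl and 3015 ± 193 RPKM in siBAP18 (SD, n = 3), and the groups overlapped. The 24 other genes summed to 299.3 ± 8.03 RPKM in siCtrl and 271.6 ± 11.3 RPKM in siBAP18, lower without overlap. CA12 alone went from 68.8 ± 3.08 to 33.4 ± 2.44 RPKM, a larger fall than that of the sum. The lower sum thus does not describe these genes as a group. In siCtrl cells the enzymes ran from GAPDH at 1036 RPKM through ENO1 (583.8), PKM (462.5), TPI1 (426.2) and LDHA (252.0) down to ALDOC (3.93) and HK2 (0.331). The genes with the most RPKM, GAPDH, ENO1, PKM and TPI1, were all among those that did not pass. This order rests on the listed lengths. In mean CPM of siCtrl cells, PKM (3973) lay above GAPDH (3096), and LDHA (1568), which fell, lay above TPI1 (1153).

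**Figure D3:**
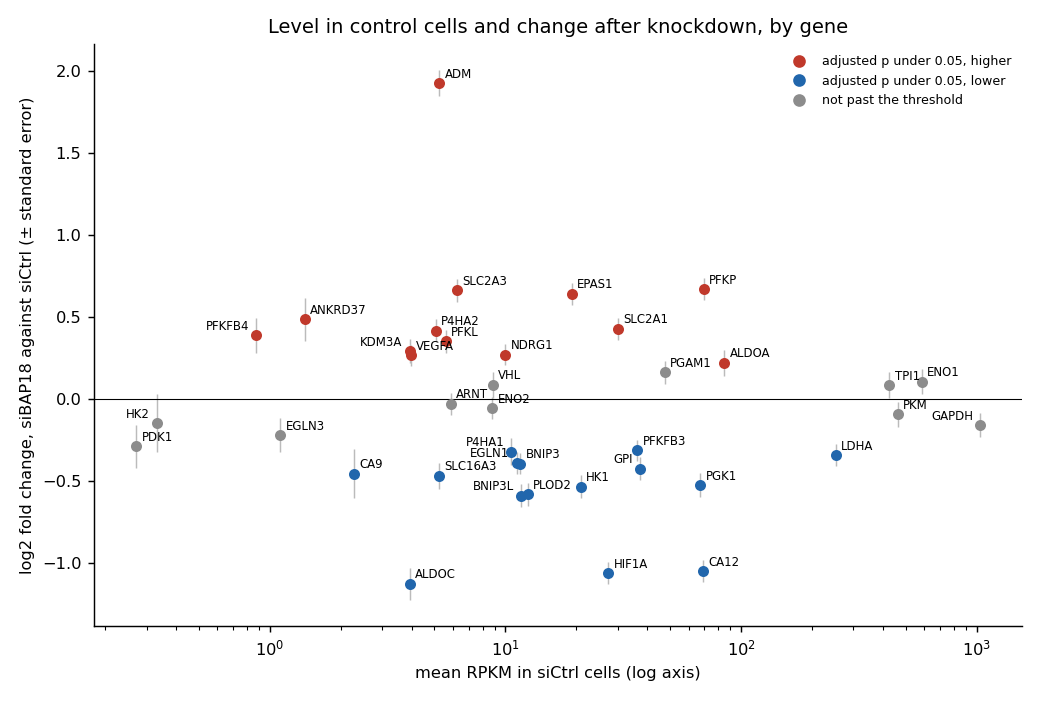
Log2 fold change (siBAP18 against siCtrl, with standard error) of each of the 39 genes against its mean RPKM in siCtrl cells on a log axis. The 4 genes with the most RPKM lie near 0, and the genes beyond 1 or −1 lie between 3.93 RPKM (ALDOC) and 68.8 RPKM (CA12).

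In upper glycolysis, the enzymes of successive steps moved in different directions. HK1, which phosphorylates glucose (chr10:69269984-69401882), was at 125.7, 123.0 and 131.8 CPM in siCtrl and at 85.3, 82.6 and 94.9 CPM in siBAP18. The groups did not overlap (log2 fold change −0.53, standard error 0.0689, adjusted p = 4.57e-07). HK2, the hexokinase that HIF-1 is known to induce, was near the low end of the set at 2.01 ± 0.189 and 1.81 ± 0.241 CPM (SD, n = 3), and did not pass (log2 fold change −0.15, standard error 0.179, adjusted p = 0.529). HKDC1, a further hexokinase that was added after its values had been seen, went from 85.3 ± 1.42 to 126.1 ± 4.26 CPM (SD, n = 3; log2 fold change 0.56, adjusted p = 7.16e-08). Of the summed RPKM of these 3 hexokinases, HK1 held 50.6% ± 1.197 in siCtrl and 32.5% ± 2.36 in siBAP18, and HKDC1 held 48.6% ± 1.17 and 66.8% ± 2.32 (SD, n = 3), without overlap. GPI, the next enzyme, fell from 339.9 ± 9.92 to 253.3 ± 20.0 CPM (log2 fold change −0.42, adjusted p = 1.36e-05).

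Phosphofructokinase commits sugar to glycolysis, and both of its isoenzymes in the set rose. PFKP (chr10:3066333-3137712) was at 339.7, 330.2 and 341.9 CPM in siCtrl and at 542.2, 491.3 and 578.8 CPM in siBAP18. All siBAP18 libraries were higher (log2 fold change 0.67, standard error 0.0697, adjusted p = 1.33e-08). PFKL rose from 49.9 ± 1.68 to 63.8 ± 4.86 CPM (log2 fold change 0.35, adjusted p = 1.77e-04). PFKM, the muscle isoenzyme and not one of the 39 genes, fell (log2 fold change −0.33, adjusted p = 1.29e-04). PFKP held 79.2% ± 0.181 of the summed RPKM of the 3 isoenzymes in siCtrl and 86.5% ± 0.471 in siBAP18, while PFKM went from 14.5% ± 0.185 to 7.90% ± 0.345 (SD, n = 3). PFKFB3 and PFKFB4 make, and can also break down, a fructose bisphosphate that activates phosphofructokinase and is not the one that phosphofructokinase makes. PFKFB3 fell from 199.3 ± 3.72 to 160.5 ± 2.26 CPM (log2 fold change −0.31, adjusted p = 2.12e-04), and PFKFB4 rose from 5.36 ± 0.122 to 7.04 ± 0.473 CPM (log2 fold change 0.39, adjusted p = 0.00389). PFKFB4 nevertheless supplied only 2.36% ± 0.0737 of the pair's RPKM in siCtrl and 3.79% ± 0.197 in siBAP18 (SD, n = 3).

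The aldolases, which cleave the sugar, also differed. ALDOC (chr17:28573115-28577264) was at 12.0, 11.6 and 10.9 CPM in siCtrl and at 5.29, 5.10 and 5.48 CPM in siBAP18. It fell 2.18-fold (log2 fold change −1.13, standard error 0.0980, adjusted p = 6.43e-10), with no overlap. ALDOA, the main aldolase, was at 543.0, 485.9 and 545.0 CPM in siCtrl and at 625.6, 526.8 and 683.1 CPM in siBAP18. Its groups overlapped, since siBAP18 replicate 2 lay below siCtrl replicates 1 and 3 (log2 fold change 0.22, standard error 0.0803, adjusted p = 0.0242). ALDOA no longer passed without siCtrl replicate 1 (adjusted p = 0.0508), siCtrl replicate 2 (0.17, adjusted p = 0.179), siBAP18 replicate 1 (adjusted p = 0.0899) or siBAP18 replicate 3 (0.14, adjusted p = 0.0761), nor with limma on log2(RPKM + 1) (adjusted p = 0.0517). ALDOC made up 4.42% ± 0.357 of the RPKM of the pair in siCtrl and 1.80% ± 0.175 in siBAP18 (SD, n = 3). Of the exon bases of ALDOC, 10.1% overlap a gene on the opposite strand. TPI1, which interconverts the triose phosphates, was at 1153 ± 58.4 and 1222 ± 157 CPM (SD, n = 3) and did not pass (log2 fold change 0.084, adjusted p = 0.403). It passed without siBAP18 replicate 2 (0.17, adjusted p = 0.0217), and its log2 fold change was −0.0089 without siBAP18 replicate 3.

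In lower glycolysis, PGK1 and LDHA fell and the other 5 enzymes did not pass. PGK1, the first ATP-forming enzyme, fell from 364.4 ± 11.4 to 253.5 ± 24.8 CPM (SD, n = 3; log2 fold change −0.52, standard error 0.0719, adjusted p = 1.17e-06). LDHA, which makes lactate, fell from 1568 ± 38.1 to 1238 ± 23.7 CPM (SD, n = 3; log2 fold change −0.34, standard error 0.0651, adjusted p = 1.02e-04). Its partner LDHB, not one of the 39 genes, fell by more (1151 ± 31.5 to 711.7 ± 96.1 CPM, log2 fold change −0.69, adjusted p = 7.41e-08), so that LDHA went from 39.6% ± 0.117 to 45.7% ± 3.00 of their summed RPKM (SD, n = 3). SLC16A1, the monocarboxylate transporter MCT1, fell as SLC16A3 did (log2 fold change −0.55, adjusted p = 7.66e-07), and the share of SLC16A3 in the pair overlapped between the groups at 42.8% ± 1.94 and 44.2% ± 4.78 (SD, n = 3).

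Of the 5 enzymes of lower glycolysis that did not pass, 4 passed when a single siBAP18 library was left out. For GAPDH and PGAM1 the call also depended on the scaling or test, as given at the end. GAPDH was at 3096 ± 109 and 2775 ± 293 CPM (SD, n = 3; log2 fold change −0.16, adjusted p = 0.0838), and it passed without siBAP18 replicate 3 (−0.23, adjusted p = 0.00171). PKM, pyruvate kinase, was at 3973 ± 141 and 3728 ± 422 CPM (log2 fold change −0.092, adjusted p = 0.334), and it too passed without siBAP18 replicate 3 (−0.18, adjusted p = 0.00666). PGAM1, phosphoglycerate mutase, was at 122.1 ± 4.65 and 136.7 ± 10.1 CPM (log2 fold change 0.16, adjusted p = 0.0533), and ENO1, enolase 1, at 2316 ± 133 and 2494 ± 254 CPM (log2 fold change 0.11, adjusted p = 0.257). Without siBAP18 replicate 2, both passed as higher, PGAM1 at 0.22 (adjusted p = 0.00278) and ENO1 at 0.18 (adjusted p = 0.0126). ENO2, the neuronal enolase and a HIF target, was at 37.8 ± 0.494 and 36.3 ± 0.660 CPM (SD, n = 3; log2 fold change −0.056, standard error 0.0674, adjusted p = 0.521). GAPDH is often used as a reference gene, and 14.2% of its exon bases overlap a gene on the opposite strand.

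**Figure D4:**
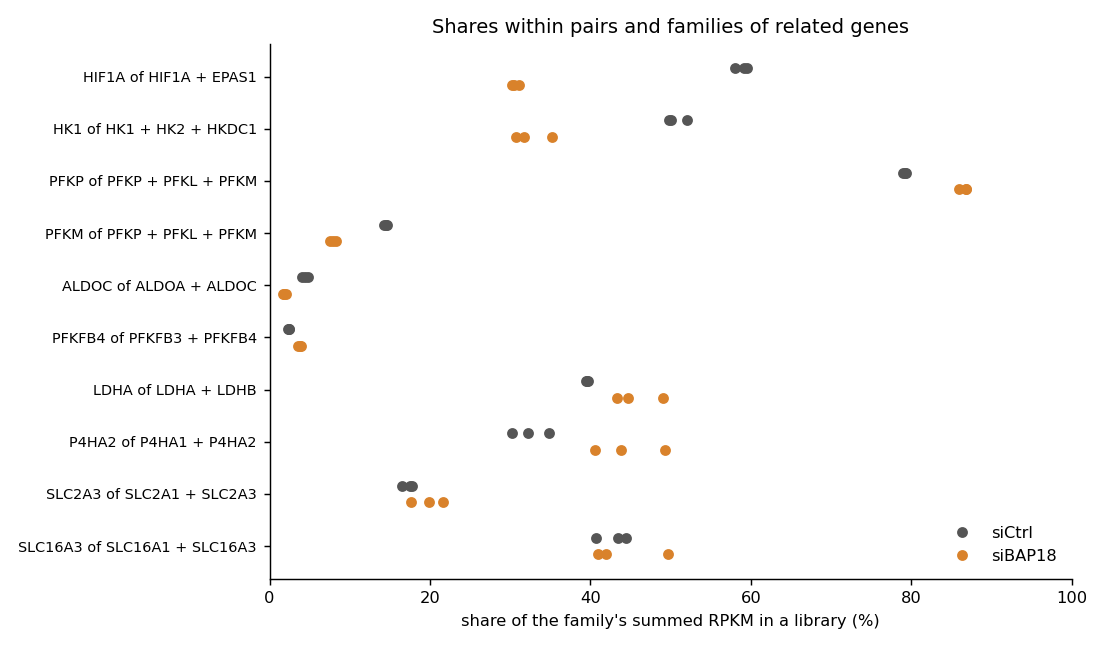
Share of the named gene in the summed RPKM of the genes on its line, in each siCtrl (gray) and siBAP18 (orange) library. The libraries of the groups are separate on the first 8 lines and overlap for SLC2A3 and SLC16A3; the share of HIF1A lies between 58.1% and 59.5% in siCtrl and between 30.2% and 31.1% in siBAP18.

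Further genes of the same pathways were counted from lists compiled by hand, beside 49.6% of all genes called at an adjusted p under 0.05 (24.5% higher and 25.1% lower). Of 13 other genes of the HIF machinery that were tested, 6 were higher and 1 lower at an adjusted p under 0.05 (53.8% called, median log2 fold change 0.20), and none had an absolute log2 fold change over 1. HIF3A, the third alpha subunit, had 0 to 2 counts per library. Of 35 other HIF target genes tested, 12 were higher and 12 lower (68.6% called, median 0.10). BHLHE41, a transcriptional repressor of the clock, was at 0.509 ± 0.118 CPM in siCtrl and 44.8 ± 6.27 CPM in siBAP18 (SD, n = 3), a log2 fold change of 6.46 (adjusted p = 1.25e-21). LOXL2, a lysyl oxidase, rose with a log2 fold change of 1.26 (adjusted p = 9.64e-14). AK4, a mitochondrial adenylate kinase, fell (log2 fold change −1.12, adjusted p = 1.07e-09). As among the 39 genes, known HIF targets moved in both directions.

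Of 31 other genes of glycolysis and pyruvate metabolism that were tested, 8 were higher and 15 lower (74.2% called, median −0.19). Of these, the glucose transporter SLC2A12 passed both thresholds (log2 fold change −1.18, adjusted p = 2.77e-05). In a short list of 5 genes, glucose-sensing factors and known targets of these, 4 passed both thresholds, beside 8.46% of all genes tested. This list was compiled by hand with earlier results of these data known, so its share was not tested. TXNIP, which restrains glucose uptake, went from 16.03 ± 0.844 to 45.9 ± 4.63 CPM (SD, n = 3), a log2 fold change of 1.52 (adjusted p = 8.51e-14), and it holds ACTCAAC in its 3′ UTR. ARRDC4, its relative, rose from 8.24 ± 0.583 to 29.8 ± 4.67 CPM (log2 fold change 1.86, adjusted p = 9.64e-14). MLXIP and MLXIPL encode MondoA and ChREBP, the factors known to activate TXNIP and ARRDC4 when glucose is plentiful. MLXIP fell from 117.5 ± 2.38 to 53.2 ± 4.66 CPM (log2 fold change −1.14, adjusted p = 1.46e-12), and MLXIPL from 4.13 ± 0.136 to 1.77 ± 0.240 CPM (log2 fold change −1.23, adjusted p = 2.59e-07). Their partner MLX was at 87.3 ± 1.94 and 92.7 ± 5.49 CPM (log2 fold change 0.087, adjusted p = 0.297). TXNIP and ARRDC4 thus rose in the same libraries in which the RNA of both factors was lower.

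**Figure D5:**
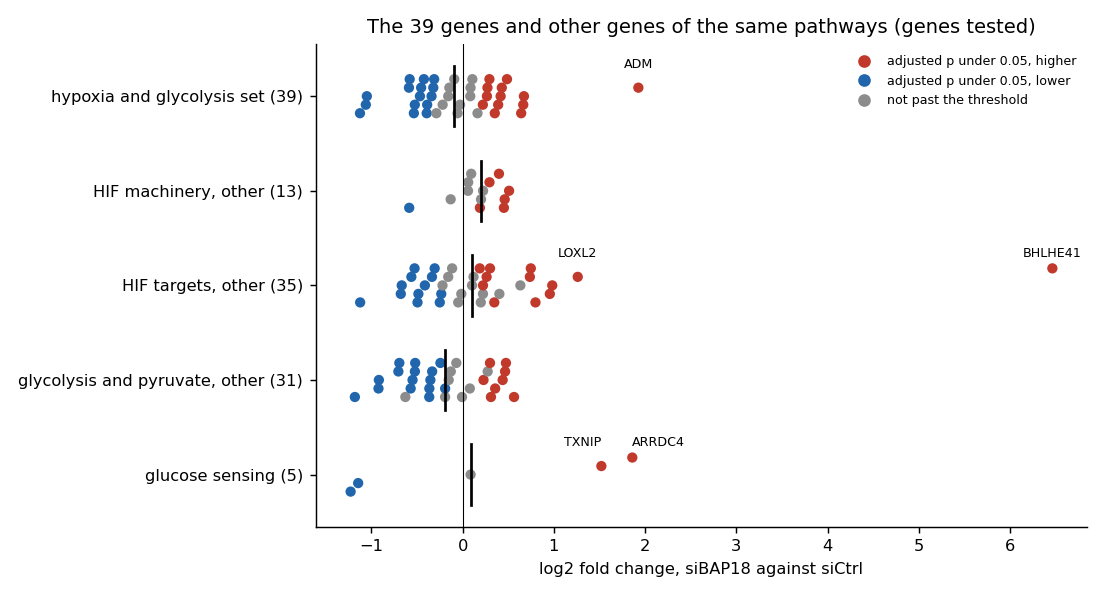
Log2 fold change (siBAP18 against siCtrl) of the 39 genes and of the tested genes of 4 further lists, with the number of genes in brackets, colors as in the plot by role and the median of each list as a black bar. Each list holds genes on both sides of 0, and the highest points are BHLHE41 at 6.46, ADM at 1.93 and ARRDC4 at 1.86.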

How the data were processed

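The authors deposited whole-number counts per gene, without normalization, and RPKM values, which equal the counts relative to listed gene length and column total (largest relative difference 1.3e-13). Aligner, counting program and use of strand are not given in the sources used here, although the labels describe strand-specific libraries. The submitters' processing notes name GRCm38 and hg38, and all 39 genes overlap the GENCODE 29 gene of the same name and strand. Between 75.3% and 77.5% of counts from 1 to 9 were even, so 1 fragment may give 2 counts. Exon bases of 20 of the 39 genes overlap another listed gene.

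Counts kept by filterByExpr were TMM-scaled and compared with edgeR 4.0.16 (glmQLFit, glmQLFTest, R 4.3.3) over 6 libraries, with group as the only term, in steps tested on simulated data. Each standard error is the size of the log2 fold change over the square root of F. Same-numbered libraries did not deviate together (Pearson r across genes −0.017, 0.051 and 0.0038). Genes past both thresholds, HIF subunit and degradation genes and the 10 with the smallest adjusted p have every library's value, and genes of other lists are named when past both thresholds. The 39 genes and the lists were chosen with earlier results of these data known. From the other lists 1 gene was left out and is not reported here, and genes not past both thresholds mostly enter only as counts. Alternatives used DESeq2 1.42.0 and limma 3.58.1. Promoter sequences are from RefSeq, GRCh38.p14.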

Additional observations from a re-analysis of the deposited data

How the results depend on the processing

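The counts of the 39 genes and of the other lists stayed within 1.5 times their values under total counts only, upper-quartile scaling, size factors of DESeq2, its Wald test, no filter, limma on log2(RPKM + 1), a replicate block and each library left out. Genes higher at an adjusted p under 0.05 ranged from 12 to 16 and lower from 14 to 17. The replicate block gave 14 higher and 16 lower, with GAPDH and PGAM1 added, changed no other call of the 39 genes, and gave 13 other HIF targets as higher. Over all genes tested the block called 10803, beside 10305 without it. The correlations given above showed no pairing of same-numbered libraries across all genes, and cannot exclude pairing in part of them. The median of the 39 genes was −0.046 with limma on log2(RPKM + 1), a scale that understates changes of low genes, and ALDOC (−0.81) was then no longer past a log2 fold change of −1. TPI1 ranged from −0.0089 without siBAP18 replicate 3 to 0.17 without siBAP18 replicate 2. Over single genes and alternatives, 493 values kept direction and side of the threshold, 15 passed in addition, 9 no longer passed and 1 changed sign; those that turned on a single library are given with the gene. PGAM1 passed under 5 alternatives of scaling or test and GAPDH with total counts only and with no filter. With 3 libraries per group, a change of about the size of the standard errors given cannot be told from none at this depth.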
